A study of Rattus norvegicus with 8 samples.

Results

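The genes described here are 51 hydrolases, cofactors, membrane proteins and transcription factors of the lysosome, chosen by symbol, of which 50 were among the 23487 genes of the count table. Sgsh, which encodes a sulfamidase of heparan sulfate, was not analysed here. Lysosomes are acidic organelles whose hydrolases take apart proteins, glycans, lipids and nucleic acids that arrive by phagocytosis, endocytosis and autophagy, and macrophages are rich in them. Many lysosomal genes share a regulatory element bound by Tfeb, Tfe3 and Mitf, members of the MiT family of basic helix-loop-helix factors. These factors move to the nucleus when the kinase mTORC1 at the lysosomal surface is inactive.

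The study asked how macrophages of the peritoneal cavity differ between a carbon nanotube that causes mesothelioma and another that does not. Female Wistar rats aged 8 weeks received an intraperitoneal dose of multi-walled nanotubes in albumin-containing saline, either the needle-like MWCNT-XNRI-7 (CNT-7) or the tangled CNT-T. Macrophages were sorted by flow cytometry on CD11b/c and His48 at day 15, and RNA-seq libraries came from 4 rats per particle, numbered 3, 5, 10 and 11 for CNT-7 and 1, 2, 12 and 13 for CNT-T. All rats had received nanotubes and untreated rats were not analysed here, so every difference is between the 2 particles. In such bulk samples a change in the share of cells of a type and a change in RNA per cell cannot be told apart.

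Libraries held 27195157 to 33732981 counts. Levels are CPM (counts per 1000000 counts, after TMM scaling), and values by rat follow the order of rats given above. A gene was called where its Benjamini-Hochberg adjusted p, taken over the 12124 genes tested with the quasi-likelihood test of edgeR, was under 0.10. Positive log2 fold changes stand for more RNA with CNT-7. Every library held Adgre1, Csf1r and Cd14, macrophage genes, at 180.6 CPM or more, while the eosinophil genes Prg3 and Epx, the neutrophil gene Mpo and the mesothelial genes Upk3b, Wt1 and Calb2 were listed at 0 in all 8 rats. A gene listed at 0 in estimated counts may be a failed estimate. Other markers of these cell types held counts. Summed markers of B cells, fibroblasts, mast cells and mesothelial cells stayed at or below 2.78 CPM in each rat. Some marker sums moved with the particle. Markers of T and NK cells reached 2.24 to 6.77 CPM after CNT-7 and 0.251 to 1.02 CPM after CNT-T, with Klrb1 at 0 and only Cd2 past the filter on low counts, called higher. Monocyte markers summed to 2862 to 3400 CPM after CNT-7 and 4460 to 4726 CPM after CNT-T, with 4 of 6 called lower, and macrophage markers to 15650 to 22610 and 24470 to 34450 CPM, with 2 of 11 called higher and 5 lower (Lyz2 made up 85.2% of that sum). The other sums overlapped between the groups, although some of their genes were called. Neutrophil markers summed to 33.9 to 63.0 against 26.3 to 68.5 CPM (84.2% from Csf3r), with 1 of 5 tested called lower (S100a8, log2 fold change -1.46). Dendritic cell markers summed to 5.61 to 11.6 against 4.37 to 8.38 CPM (74.6% from Zbtb46), with 2 of 3 tested called higher (Clec9a, 1.76, and Ccr7, 3.80). The groups of these 3 called genes did not overlap. Eosinophil markers summed to 151 to 305 against 146 to 208 CPM (99.3% from Siglec5), with 0 called of the 1 tested. The eosinophil genes Ccr3 and Il5ra, which did not pass the filter on low counts, stood out in CNT-7 rat 3. Ccr3 was at 8.74 CPM there and at most 0.637 CPM in any other rat, and Il5ra at 0.558 and at most 0.033 CPM. The part of any of these cell types in the lysosomal differences was not tested.

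All 50 lysosomal genes passed the filter on low counts, and the smallest count of any of them in a rat was 339. Together they took 3.07% ± 0.164 of all counts after CNT-7 (SD, n = 4, range 2.93% to 3.29%) and 3.32% ± 0.164 after CNT-T (range 3.10% to 3.45%), so the groups overlapped in the summed share. Psap took the most counts among them in every rat. Counts also grow with transcript length, so CPM of single genes are not compared with each other.

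Between the particles 9 lysosomal genes were called higher after CNT-7, 10 lower and 31 were not called. That is 38% called in either direction. Of all genes tested, 13.9% were called higher, 14% lower and 27.9% in either direction. The list was drawn up with results of this same comparison known, so nothing is read from its counts beyond the description. The median log2 fold change was 0.036 over the 50 genes and 0.0083 over all genes tested, and 27 of the 50 were positive. Sizes were mostly small, since 43 of the 50 lay within 0.5 of 0 on the log2 scale (86.0%), compared with 79.2% of all genes tested. The median absolute log2 fold change was nonetheless slightly larger over the 50 genes (0.198) than over all genes tested (0.190). The 2 sets were not matched for level, with a median of 227.1 CPM over the 50 genes and 24.4 CPM over all genes tested. Values of the 4 CNT-7 rats lay wholly above those of the 4 CNT-T rats in 8 genes and wholly below in 6, where the shares over all genes were 12.3% and 12.6%. The number called lower fell to 5 without CNT-7 rat 3 or 10 or CNT-T rat 1, 2 or 12. With each rat left out in turn, 7 to 12 lysosomal genes were called higher. Calls over all genes moved too, from 1697 lower to between 1305 and 1772, and from 1686 higher to between 1261 and 1743. The 9 higher and 10 lower genes were spread over the roles of the list, as the plot of fold changes by role shows.

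**Figure D1:**
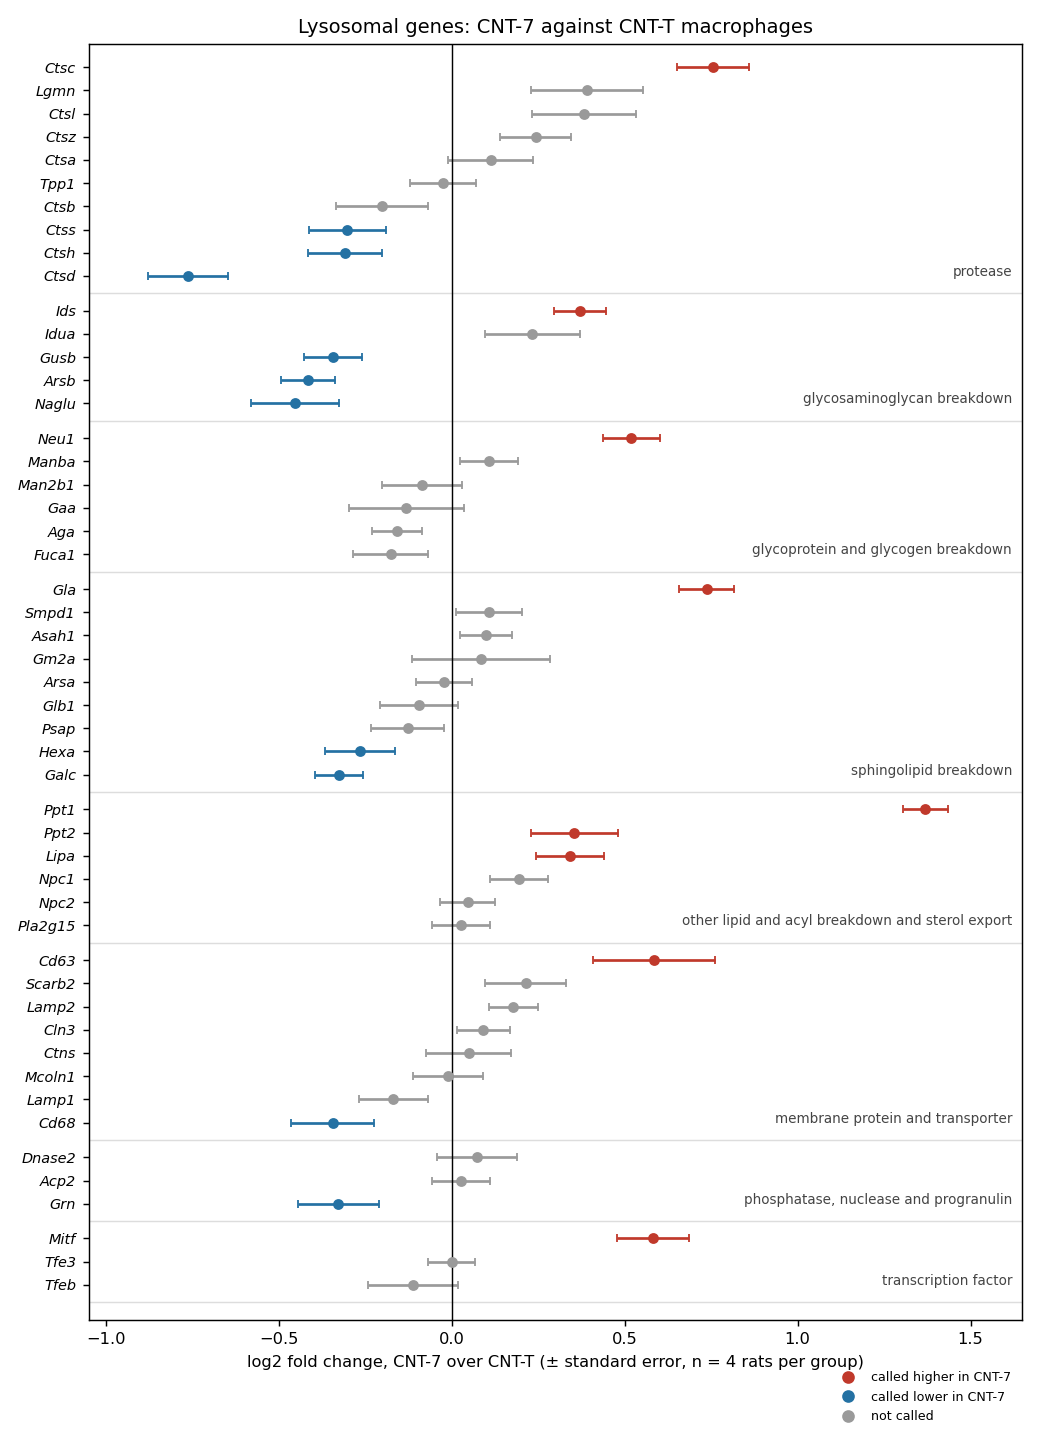
Log2 fold change, positive where CNT-7 is higher (horizontal axis), for the 50 lysosomal genes (rows, grouped by role), with bars for the standard error and 4 rats per group. Red marks the 9 genes called higher, blue the 10 called lower and grey the 31 not called, and Ppt1 lies farthest from 0 at 1.37.

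**Figure D2:**
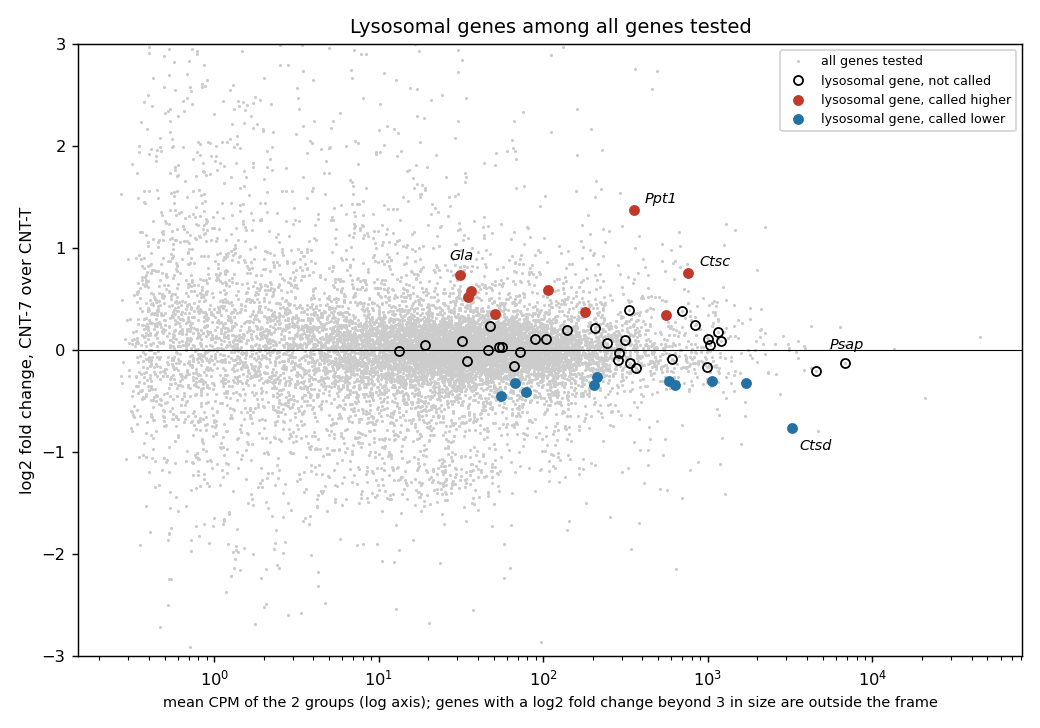
Mean CPM of the groups (horizontal log axis) against log2 fold change (vertical axis) for all 12124 genes tested (grey dots) and the 50 lysosomal genes (circles, filled where called). The lysosomal genes lie between 13.2 and 6763 CPM on average, and genes with a log2 fold change beyond 3 in size fall outside the frame.

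The proteases ran in both directions. Ctsc rose, Ctsd, Ctsh and Ctss fell, and the other 6 were not called. Ctsd (ENSRNOG00000020206), the main aspartic endopeptidase of the lysosome, was at 2066, 2530.5, 2606 and 2442 CPM with CNT-7, against 4377, 4401, 3368 and 4221 CPM with CNT-T. The highest CNT-7 rat was below the lowest CNT-T rat (edgeR log2 fold change -0.76 ± 0.11 SE, adjusted p = 0.00205, a level 1.70-fold lower). Ctsc (ENSRNOG00000016496) encodes a dipeptidyl peptidase that trims and thereby activates granule serine proteases. Its values were 806, 1012, 1077 and 918 CPM with CNT-7, against 636, 548, 544 and 531 CPM with CNT-T, without overlap between the groups (edgeR log2 fold change 0.76 ± 0.11 SE, adjusted p = 0.00145, 1.69-fold higher). Opposite changes of similar size thus stood side by side in this role.

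The CLEAR element that MiT factors bind is built on an E-box, and its letters were searched in the promoters of the RefSeq table (assembly GRCr8, 250 bases before to 50 after the start site, both strands). The palindrome TCACGTGA, which contains the shorter TCACGTG and CACGTG, lay in 5 of the 42 lysosomal genes with a promoter in that table (11.9%), in 1.75% of the 8872 promoters matched to genes tested and in 0.777% of all 33469. TCACGTG lay in 8 of the 42 (19.0%) and in 5.68% of the promoters of genes tested, and CACGTG in 9 (21.4%) and in 9.52%. By call, TCACGTGA lay in 2 of 8 promoters of genes called lower (Ctsd and Galc), in 3 of 26 of those not called (Lamp1, Mcoln1 and Cln3) and in 0 of 8 of those called higher. TCACGTG lay in 2 of 8, 6 of 26 and 0 of 8, and CACGTG in 2 of 8, 6 of 26 and 1 of 8 in the same order. Over all genes tested with a promoter, TCACGTGA lay in 2.44% of those called lower and 1.40% of those called higher. A count of 0 says only that the letters are absent from these windows, and Ppt1, Ctsb, Psap, Hexa, Arsb, Arsa, Asah1 and Dnase2 had no entry. For lysosomal genes and genes tested only the first entry of each symbol was used, so other promoters of a gene were not searched. The 33469 counted every entry, of which 6012 repeated a symbol, so that share is per promoter and not per gene. The windows of Ctsd and Galc are shown because, of the genes given with the value in every rat, only these carry the palindrome. It lay 11 and 21 bases upstream of the start site in them. In the carriers not called it lay 66 and 39 bases upstream (Lamp1), 39 upstream (Cln3) and 3 bases after the start (Mcoln1). A link between the palindrome and the direction of change was not tested. The Ctsd and Galc windows lie on the minus strand and are written 5′ to 3′ in the direction of transcription, with TCACGTGA in capitals.

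The Ctsd window is chr1:206968772-206969071 and the Galc window chr6:123245510-123245809 (GRCr8).
Ctsd: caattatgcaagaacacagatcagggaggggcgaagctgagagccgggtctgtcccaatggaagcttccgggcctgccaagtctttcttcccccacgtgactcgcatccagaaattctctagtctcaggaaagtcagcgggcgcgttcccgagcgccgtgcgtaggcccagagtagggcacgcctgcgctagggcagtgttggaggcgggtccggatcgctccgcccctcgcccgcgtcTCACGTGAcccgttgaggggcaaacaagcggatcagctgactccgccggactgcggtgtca
Galc: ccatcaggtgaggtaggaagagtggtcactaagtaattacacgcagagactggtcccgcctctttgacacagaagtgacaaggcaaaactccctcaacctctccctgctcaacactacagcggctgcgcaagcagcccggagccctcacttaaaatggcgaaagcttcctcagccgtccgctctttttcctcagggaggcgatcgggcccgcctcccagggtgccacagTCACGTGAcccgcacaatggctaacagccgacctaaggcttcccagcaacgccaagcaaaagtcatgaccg

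The cysteine protease genes Ctsh and Ctss fell by less, and their groups overlapped. Ctss (ENSRNOG00000021157), whose product cuts the invariant chain of MHC class II, was at 1012, 866, 819.8 and 1073 CPM with CNT-7, against 1208, 1189, 1261 and 993 CPM with CNT-T (edgeR log2 fold change -0.30 ± 0.11 SE, adjusted p = 0.0875). CNT-T rat 13 lay inside the CNT-7 range. Its adjusted p from edgeR was between 0.106 and 0.207 without CNT-7 rat 3, 5 or 10 or CNT-T rat 1, 2 or 12, and 0.109 with low or high rat number as a covariate. Ctsh (ENSRNOG00000014064), an aminopeptidase, was at 485, 574, 503 and 522 CPM with CNT-7, against 735, 618, 693 and 536 CPM with CNT-T (edgeR log2 fold change -0.31 ± 0.11 SE, adjusted p = 0.0702). Again CNT-T rat 13 alone reached into the CNT-7 values. The adjusted p of Ctsh was between 0.104 and 0.171 without CNT-7 rat 3, 10 or 11 or CNT-T rat 1, 2 or 12.

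Ctsb (ENSRNOG00000010331), a cysteine endopeptidase and the protease gene with the most counts, had 3485, 4245, 4683 and 4557 CPM with CNT-7, against 4613, 5813, 4078 and 5007 CPM with CNT-T, with broad overlap (edgeR log2 fold change -0.20 ± 0.13 SE, adjusted p = 0.331). Positive but not called were Lgmn, an asparaginyl endopeptidase (0.39), Ctsl (0.38) and Ctsz (0.24), with adjusted p-values from edgeR of 0.125, 0.105 and 0.131. Each of these passed the threshold without 1 rat, Lgmn and Ctsl without CNT-T rat 13 (adjusted p = 0.0317 and 0.0479) and Ctsz without CNT-T rat 1 (0.0893). Ctsl also passed in DESeq2 (0.0588), with upper-quartile normalization (0.0990), with at least 10 counts in every rat (0.0996) and with low or high rat number as a covariate (0.0935), and Lgmn passed in DESeq2 (0.0821). Ctsa, a carboxypeptidase that shields Neu1 and Glb1 from breakdown, and Tpp1, a tripeptidyl peptidase, had log2 fold changes of 0.11 and -0.026.

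Of the 5 glycosaminoglycan enzymes analysed, 3 fell and 1 rose. Arsb (ENSRNOG00000011150), the sulfatase of dermatan and chondroitin sulfate, was at 58.7, 72.0, 70.5 and 69.6 CPM with CNT-7, against 87.2, 87.9, 91.6 and 94.5 CPM with CNT-T (edgeR log2 fold change -0.42 ± 0.077 SE, adjusted p = 0.00539). Gusb (ENSRNOG00000000913), the beta-glucuronidase that acts on several of these chains, was at 179, 187, 164 and 182 CPM with CNT-7, against 256, 224, 219 and 205 CPM with CNT-T (edgeR log2 fold change -0.34 ± 0.083 SE, adjusted p = 0.0169). Naglu (ENSRNOG00000032381), an alpha-glucosaminidase of heparan sulfate, was at 42.5, 54.9, 36.0 and 53.1 CPM with CNT-7, against 69.4, 63.2, 62.1 and 60.6 CPM with CNT-T (edgeR log2 fold change -0.45 ± 0.13 SE, adjusted p = 0.0324). In all 3 every CNT-7 rat was below every CNT-T rat, and Naglu varied most among the CNT-7 rats, from rat 10 to rat 5. Ids (ENSRNOG00000001465), the iduronate sulfatase that opens heparan and dermatan sulfate breakdown, moved the other way, at 199, 214, 214 and 179.8 CPM with CNT-7, against 162, 157, 156 and 149.9 CPM with CNT-T (edgeR log2 fold change 0.37 ± 0.074 SE, adjusted p = 0.00745). The groups of Ids did not overlap. Idua, the iduronidase of the following step, had 51.5 ± 9.17 CPM with CNT-7, against 43.9 ± 5.94 CPM with CNT-T (SD, n = 4) and was not called (log2 fold change 0.23).

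Among the enzymes of glycoproteins and glycogen, Neu1 was the only gene called. Neu1 (ENSRNOG00000032942), the sialidase that removes terminal sialic acid, was at 36.4, 43.7, 44.2 and 41.0 CPM with CNT-7, against 29.0, 31.0, 27.1 and 28.3 CPM with CNT-T (edgeR log2 fold change 0.52 ± 0.083 SE, adjusted p = 0.00263, 1.43-fold higher). No value of the groups crossed. Man2b1 (ENSRNOG00000023910), an alpha-mannosidase, had 592, 670.0, 569 and 525 CPM with CNT-7, against 735, 577, 653 and 534 CPM with CNT-T, and the groups overlapped over most of their range (edgeR log2 fold change -0.086 ± 0.12 SE, adjusted p = 0.658). Gaa, the acid glucosidase of glycogen, Fuca1, a fucosidase, Aga, which cuts the asparagine link of glycans, and Manba, a beta-mannosidase, had log2 fold changes of -0.13, -0.18, -0.16 and 0.11. Aga had 62.4, 66.6, 55.5 and 66.1 CPM with CNT-7, against 67.7, 68.3, 72.1 and 71.7 CPM with CNT-T, so its groups did not overlap although it was not called (edgeR, adjusted p = 0.159).

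In the sphingolipid role, Gla rose, Galc and Hexa fell and 6 genes were not called. Gla (ENSRNOG00000011513), the alpha-galactosidase whose loss causes Fabry disease, was at 37.5, 39.8, 42.8 and 36.0 CPM with CNT-7, against 23.1, 22.0, 25.3 and 23.4 CPM with CNT-T (edgeR log2 fold change 0.74 ± 0.08 SE, adjusted p = 0.000444, 1.67-fold higher). The lowest CNT-7 rat was well above the highest CNT-T rat. Galc (ENSRNOG00000003759), which splits galactosylceramide and whose promoter window is printed beside that of Ctsd, was at 57.9, 57.6, 63.6 and 61.0 CPM with CNT-7, against 69.2, 73.9, 76.4 and 81.5 CPM with CNT-T (edgeR log2 fold change -0.33 ± 0.07 SE, adjusted p = 0.01). Here no CNT-7 rat reached the CNT-T range. Hexa (ENSRNOG00000010252), the alpha subunit of beta-hexosaminidase, was at 181, 216, 199.7 and 169 CPM with CNT-7, against 262, 220.2, 233 and 206 CPM with CNT-T (edgeR log2 fold change -0.27 ± 0.10 SE, adjusted p = 0.0963). CNT-7 rat 5 overlapped with CNT-T rat 13, and the adjusted p of Hexa was between 0.13 and 0.208 without CNT-7 rat 3, 10 or 11 or CNT-T rat 1, 2 or 12 and 0.113 without a filter on low counts, and it just missed the threshold with upper-quartile normalization.

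Psap (ENSRNOG00000000571), the precursor of the saposins that present lipids to these enzymes, was at 6218, 7382, 6147 and 6108 CPM with CNT-7, against 7991, 7142, 6464 and 6656 CPM with CNT-T (edgeR log2 fold change -0.13 ± 0.10 SE, adjusted p = 0.44). The groups overlapped, with CNT-7 rat 5 above its group. Gm2a, the activator protein for ganglioside breakdown, had 1245 ± 326 CPM with CNT-7, against 1174 ± 214 CPM with CNT-T (SD, n = 4), and it had the largest coefficient of variation of the 50 genes in the CNT-7 group. Its log2 fold change was 0.085, and those of Smpd1, the acid sphingomyelinase, Asah1, the acid ceramidase, Arsa, the sulfatase of sulfatide, and Glb1, a beta-galactosidase, were 0.11, 0.099, -0.022 and -0.094.

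The 6 genes of other lipids, acyl groups and sterol export all had a positive log2 fold change, and 3 were called higher. Ppt1 (ENSRNOG00000012616), the thioesterase that strips palmitate from proteins and whose loss causes infantile neuronal ceroid lipofuscinosis, was at 480.3, 521, 535 and 513 CPM with CNT-7, against 195, 195, 203 and 201 CPM with CNT-T. Its values clustered tightly within each group, at 512 ± 23.3 CPM with CNT-7, against 198 ± 4.01 CPM with CNT-T (mean ± SD, n = 4). It was the only lysosomal gene of the list to be called with at least a 2-fold change (edgeR log2 fold change 1.37 ± 0.065 SE, adjusted p = 7.16e-06, 2.58-fold higher), where 4.55% of all genes tested were called at least 2-fold higher and 3.74% at least 2-fold lower. Leaving out any 1 rat gave Ppt1 log2 fold changes of 1.35 to 1.40.

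Lipa (ENSRNOG00000019077), the acid lipase of cholesteryl esters and triglycerides, was at 618, 639.9, 669 and 567 CPM with CNT-7, against 419.7, 473, 535 and 540.1 CPM with CNT-T (edgeR log2 fold change 0.34 ± 0.098 SE, adjusted p = 0.0342). The groups did not overlap. Ppt2 (ENSRNOG00000000435), a thioesterase related to Ppt1, was at 51.8, 62.6, 58.2 and 56.0 CPM with CNT-7, against 56.8, 43.7, 41.1 and 37.2 CPM with CNT-T (edgeR log2 fold change 0.35 ± 0.13 SE, adjusted p = 0.0768). CNT-T rat 1 lay among the CNT-7 rats, and the adjusted p of Ppt2 was between 0.103 and 0.184 without CNT-7 rat 5, 10 or 11 or CNT-T rat 2, 12 or 13. Npc2 (ENSRNOG00000012062), which hands cholesterol to Npc1, had 1025, 1097, 1086 and 973 CPM with CNT-7, against 1079, 962, 1068 and 940.5 CPM with CNT-T, with full overlap (edgeR log2 fold change 0.046 ± 0.08 SE, adjusted p = 0.737). Npc1, the membrane partner in cholesterol export, and Pla2g15, a phospholipase, had log2 fold changes of 0.20 and 0.026 and were not called, and Npc1 passed the threshold of edgeR without CNT-T rat 13 (adjusted p = 0.0685).

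**Figure D3:**
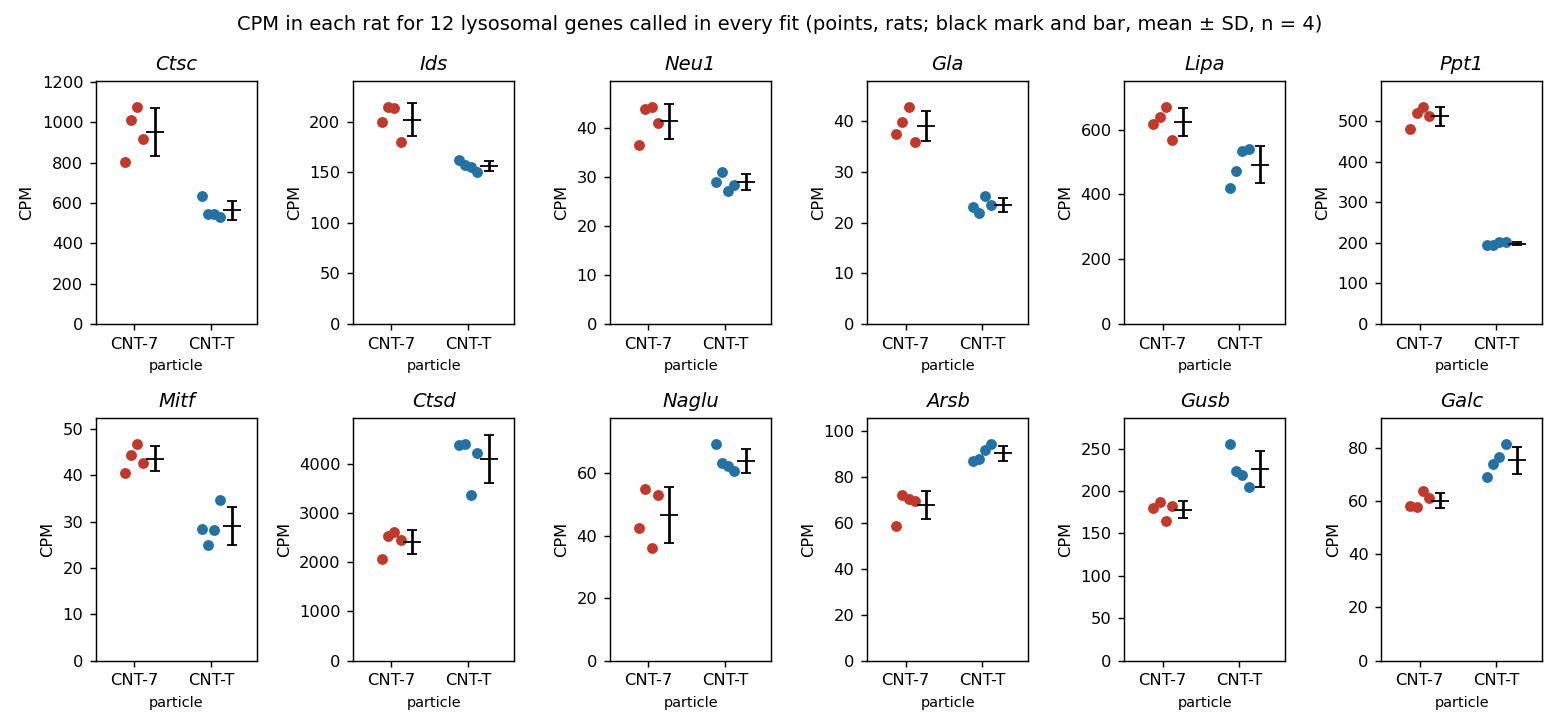
CPM (vertical axes, starting at 0) in each CNT-7 rat (red) and CNT-T rat (blue) for 12 lysosomal genes, with a black mark and bar for the mean ± SD of 4 rats. These genes were called at an adjusted p under 0.10 in the fit reported and in all 13 alternative fits. The groups of each of the 12 genes do not overlap, with the 7 higher genes first (Ppt1 at 480 to 535 against 195 to 203 CPM) and the 5 lower genes after them.

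Of the 8 membrane proteins and transporters, Cd63 rose, Cd68 fell and 6 were not called. Cd63 (ENSRNOG00000007650), a tetraspanin of late endosomes and secreted vesicles, was at 117, 109, 159 and 125 CPM with CNT-7, against 65.2, 79.6, 80.2 and 115 CPM with CNT-T (edgeR log2 fold change 0.58 ± 0.18 SE, adjusted p = 0.0432). CNT-T rat 13 had more Cd63 than CNT-7 rat 5, and without CNT-T rat 2 or 12 the adjusted p was 0.109 or 0.110. Cd68 (ENSRNOG00000037563), the heavily glycosylated macrosialin used as a macrophage marker, was at 542, 592, 496 and 603 CPM with CNT-7, against 864, 710.3, 669 and 591 CPM with CNT-T (edgeR log2 fold change -0.34 ± 0.12 SE, adjusted p = 0.0715). CNT-T rat 1 was highest and CNT-T rat 13 lay within the CNT-7 range, and the adjusted p of Cd68 was between 0.107 and 0.16 without CNT-7 rat 3, 5 or 10 or CNT-T rat 1, 2 or 12.

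The major membrane glycoproteins had small log2 fold changes and were not called. Lamp2 (ENSRNOG00000000164), also needed for fusion of autophagosomes with lysosomes, was at 1218, 1281, 1219 and 1188 CPM with CNT-7, against 1038, 1048, 1091 and 1161 CPM with CNT-T. Its groups did not overlap, but the difference was small (edgeR log2 fold change 0.18 ± 0.071 SE, adjusted p = 0.109), and it was called in DESeq2 (adjusted p = 0.0380) and in edgeR without CNT-T rat 13 (0.0768). Lamp1, its relative, had 932 ± 103 CPM with CNT-7, against 1048 ± 77.7 CPM with CNT-T (SD, n = 4) and a log2 fold change of -0.17. Scarb2, the carrier of glucocerebrosidase, Cln3, a membrane protein lost in juvenile ceroid lipofuscinosis, Ctns, the cystine exporter, and Mcoln1, a calcium channel, had log2 fold changes of 0.21, 0.091, 0.049 and -0.011, none of them called.

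Grn (ENSRNOG00000021031), the precursor of progranulin, which is delivered to lysosomes and supports their function, was at 1528, 1749.7, 1224 and 1567 CPM with CNT-7, against 2088, 1924, 1917 and 1690.0 CPM with CNT-T (edgeR log2 fold change -0.33 ± 0.12 SE, adjusted p = 0.0773). CNT-7 rat 5 overlapped with CNT-T rat 13, and the adjusted p of Grn was between 0.135 and 0.161 without CNT-7 rat 3 or 10 or CNT-T rat 1, 2 or 12. Acp2, an acid phosphatase, and Dnase2, the acid nuclease that digests engulfed DNA, had log2 fold changes of 0.026 and 0.073 and were not called.

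Of the 3 MiT transcription factors, Mitf rose and Tfeb and Tfe3 were not called. Mitf (ENSRNOG00000008658) was at 40.4, 44.5, 46.8 and 42.6 CPM with CNT-7, against 28.5, 25.01, 28.3 and 34.8 CPM with CNT-T. Every CNT-7 rat was above every CNT-T rat (edgeR log2 fold change 0.58 ± 0.10 SE, adjusted p = 0.00424, 1.497-fold higher). Tfeb (ENSRNOG00000014666) was at 32.5, 38.9, 29.6 and 31.5 CPM with CNT-7, against 41.3, 38.9, 34.9 and 28.03 CPM with CNT-T (edgeR log2 fold change -0.11 ± 0.13 SE, adjusted p = 0.601). Tfe3 (ENSRNOG00000009605) was at 44.3, 48.3, 45.5 and 45.5 CPM with CNT-7, against 47.3, 42.4, 48.5 and 45.4 CPM with CNT-T (edgeR log2 fold change -0.0007 ± 0.067 SE, adjusted p = 0.996). The groups of Tfeb and Tfe3 overlapped, and since these factors are controlled largely by their place in the cell, their mRNA levels do not report their activity.

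The map of levels in each rat shows how rats of a group differed. Among the CNT-T rats, rat 1 had the highest value of its group in 26 of the 50 genes and rat 13 the lowest in 25. Among the CNT-7 rats, rat 5 was highest in 25 genes, and rats 3 and 10 were lowest in 17 and 18. For the 10 genes called lower, CNT-T rat 13 held the lowest CNT-T value in 7 and CNT-T rat 1 the highest in 6, and for the 9 genes called higher CNT-7 rat 10 held the highest CNT-7 value in 7. The median coefficient of variation over the 50 genes was 9.47% after CNT-7 and 9.98% after CNT-T, against 11.3% and 11.1% over all genes tested. All genes tested were not matched to the 50 for level (median 24.4 against 227.1 CPM), so nothing particular to lysosomal genes is read from this.

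**Figure D4:**
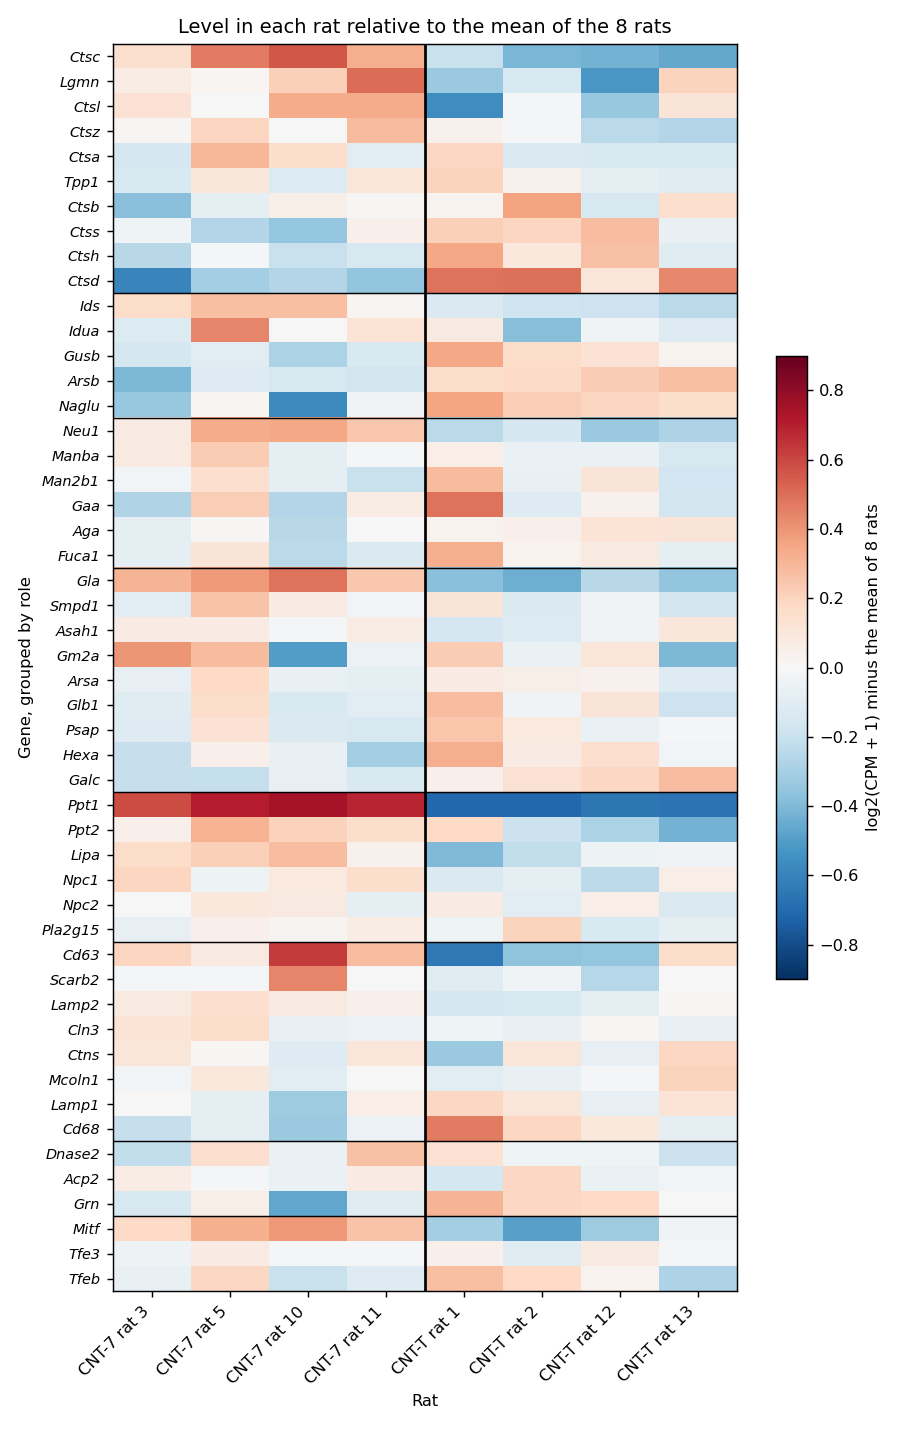
Level of the 50 lysosomal genes (rows, grouped by role) in each of the 8 rats (columns, CNT-7 left of the line), as log2(CPM + 1) minus the mean of the 8 rats, red above and blue below. Ppt1, Ctsc, Gla, Neu1 and Mitf are red in all CNT-7 rats and Ctsd, Gusb, Arsb and Galc are blue in them, with the opposite colour in all CNT-T rats.

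Other lists of lysosomal genes give the context of these values. As a background for their counts, 13.9% of all genes tested were called higher and 14% lower, and no set test was run. Counts given below without a rat stand beside 1261 to 1743 of all genes called higher and 1305 to 1772 lower in such fits. The fit with all rats called 1686 higher and 1697 lower. Of 31 further hydrolases and cofactors tested, 5 were called higher and 9 lower, with a median log2 fold change of -0.022. Acp5 (ENSRNOG00000046261), the tartrate-resistant phosphatase of osteoclasts and activated macrophages, rose from 0.757 ± 0.225 to 6.04 ± 1.39 CPM (mean ± SD, n = 4, edgeR log2 fold change 2.99 ± 0.27 SE, adjusted p = 0.000246). Prcp, a carboxypeptidase, was at 401, 398, 527 and 349.5 CPM with CNT-7, against 207, 189, 165 and 160.1 CPM with CNT-T, without overlap (edgeR log2 fold change 1.22 ± 0.14 SE, adjusted p = 0.000545). Naaa, the amidase of palmitoylethanolamide, was at 364, 450.4, 284 and 399 CPM with CNT-7, against 1208, 1035, 882 and 956 CPM with CNT-T (edgeR log2 fold change -1.45 ± 0.15 SE, adjusted p = 0.000379). The groups of Naaa did not overlap.

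Of 6 cystatin and serpin genes tested, in a list of inhibitors of lysosomal and granule proteases, the cystatins Cst7 and Cstb were called higher and the serpin Serpinb9 lower. Cst7 (ENSRNOG00000006767) encodes cystatin F, an inhibitor that is itself delivered to lysosomes and acts on Ctsc. It was at 104, 75.5, 83.3 and 87.9 CPM with CNT-7, against 0.522, 3.46, 0.824 and 0.931 CPM with CNT-T, the largest log2 fold change of the lysosomal lists (edgeR log2 fold change 5.90 ± 0.46 SE, adjusted p = 0.000126). Cystatin F is also made by NK cells, whose markers summed with those of T cells to at most 6.77 CPM in a rat, and their part in the Cst7 level was not tested. Cstb, a cytosolic inhibitor, had a log2 fold change of 0.33, and Serpinb9, an inhibitor of granzyme B, of -0.79 (edgeR, adjusted p = 0.0323 and 0.014).

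Of 17 V-ATPase subunits, 15 had a positive log2 fold change, 5 were called higher and 0 lower by edgeR (also 0 lower at an unadjusted p under 0.05 and 0 in DESeq2), with a median of 0.14. Over all genes tested, 51.1% were positive, 13.9% were called higher and 14% lower. Atp6v0a1, a membrane subunit, was at 171, 175, 193 and 183 CPM with CNT-7, against 126, 134, 128 and 149 CPM with CNT-T (edgeR log2 fold change 0.43 ± 0.076 SE, adjusted p = 0.00424). Atp6ap1 and Atp6v1c1 had log2 fold changes of 0.30 and 0.27, and no overlap between groups. Of 20 genes of lysosome fusion and positioning, 16 were positive, 5 were called higher and 0 lower (0 lower at an unadjusted p under 0.05 and in DESeq2), with a median of 0.17. Among the called genes of this list the largest log2 fold changes were those of Borcs6, Plekhm2 and Borcs7, genes of lysosome transport along microtubules (0.39, 0.34 and 0.25, edgeR adjusted p = 0.0778, 0.0206 and 0.0661). The groups of Borcs6 overlapped, and its adjusted p was between 0.12 and 0.192 without CNT-7 rat 5, 10 or 11 or CNT-T rat 12 or 13. That of Borcs7, whose groups did not overlap, was between 0.112 and 0.156 without CNT-7 rat 3, 5 or 10 or CNT-T rat 1, 2 or 12. The number of V-ATPase subunits called higher was 3 without CNT-7 rat 3, CNT-7 rat 5, CNT-7 rat 10, CNT-T rat 1 or CNT-T rat 12. The number of fusion and positioning genes called higher was 2 without CNT-7 rat 5, CNT-T rat 2 or CNT-T rat 12 and 3 without CNT-7 rat 3, CNT-7 rat 10 or CNT-7 rat 11.

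Of 35 autophagy genes, 31 had a positive log2 fold change, 9 were called higher and 0 lower by edgeR (0 lower at an unadjusted p under 0.05 and 0 in DESeq2), with a median of 0.16. Of all genes tested, 51.1% were positive, 13.9% were called higher and 14% lower. Wipi1, which binds lipid on forming autophagosomes, was at 11.4, 14.9, 12.9 and 12.1 CPM with CNT-7, against 6.55, 4.32, 7.95 and 5.94 CPM with CNT-T (edgeR log2 fold change 1.05 ± 0.18 SE, adjusted p = 0.0037). Its groups did not overlap. Ulk1, the kinase that starts autophagy, had a log2 fold change of 0.56 (edgeR, adjusted p = 0.0118). Sqstm1, the cargo receptor p62, was at 122, 174, 170.0 and 134 CPM with CNT-7, against 76.0, 84.9, 72.0 and 138 CPM with CNT-T (edgeR log2 fold change 0.69 ± 0.21 SE, adjusted p = 0.0447). CNT-T rat 13 reached into the CNT-7 range for Sqstm1, and its adjusted p was between 0.102 and 0.119 without CNT-7 rat 5 or CNT-T rat 1, 2 or 12. The number of autophagy genes called higher was 4 without CNT-7 rat 5 and 5 without CNT-7 rat 3, CNT-7 rat 10 or CNT-T rat 12.

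A list of 21 genes around the control of Tfeb held mTORC1, Ragulator and folliculin components. It also held Tfec, Zkscan3, Ppp3cb, Ppp3r1 and Ywhaz, so not all of its genes act at the lysosome. By edgeR 1 of the 21 was called higher (Ywhaz, 0.21) and 0 lower, with 2 lower at an unadjusted p under 0.05 and 1 lower in DESeq2. The adjusted p of Ywhaz was between 0.114 and 0.197 without CNT-7 rat 3, 5 or 10 or CNT-T rat 2 or 12 and 0.113 without a filter on low counts. Of 18 genes of mannose 6-phosphate tagging and sorting, which directs hydrolases to lysosomes, 5 were called higher and 1 lower. The number called higher was 1 without CNT-7 rat 10 or CNT-T rat 12 and 2 without CNT-7 rat 5 or CNT-T rat 13 and 3 without CNT-7 rat 11. The number called lower was 2 without CNT-7 rat 5, CNT-7 rat 11 or CNT-T rat 13. Igf2r, the large receptor of this tag, was at 56.5, 70.2, 75.8 and 53.6 CPM with CNT-7, against 49.5, 45.6, 41.5 and 37.0 CPM with CNT-T (edgeR log2 fold change 0.56 ± 0.13 SE, adjusted p = 0.0143), and Gga2, a sorting adaptor, at 104, 106, 78.4 and 101 CPM with CNT-7, against 142, 114, 134 and 138 CPM with CNT-T (edgeR log2 fold change -0.44 ± 0.11 SE, adjusted p = 0.0194). Both were free of overlap, in opposite directions. Nagpa, which uncovers the tag, had a log2 fold change of 0.40, and its adjusted p was between 0.115 and 0.149 without CNT-7 rat 5, 10 or 11 or CNT-T rat 12 or 13. M6pr, the small receptor of the tag, was listed at 0 in all rats, which may be a failed estimate, so nothing is read from it.

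Of 28 other lysosomal membrane proteins and transporters, 7 were called higher and 5 lower. Slc11a1, the Nramp metal transporter of phagosomes, was at 147, 188, 186 and 217 CPM with CNT-7, against 463, 409.9, 384 and 426 CPM with CNT-T (edgeR log2 fold change -1.19 ± 0.12 SE, adjusted p = 0.000331). Every CNT-7 rat had less than every CNT-T rat. Litaf and Laptm4a, small membrane proteins of late endosomes, had log2 fold changes of 0.68 and 0.60 (edgeR, adjusted p = 0.00883 and 0.00382). The number called lower was 3 without CNT-7 rat 3 or CNT-T rat 13.

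**Figure D5:**
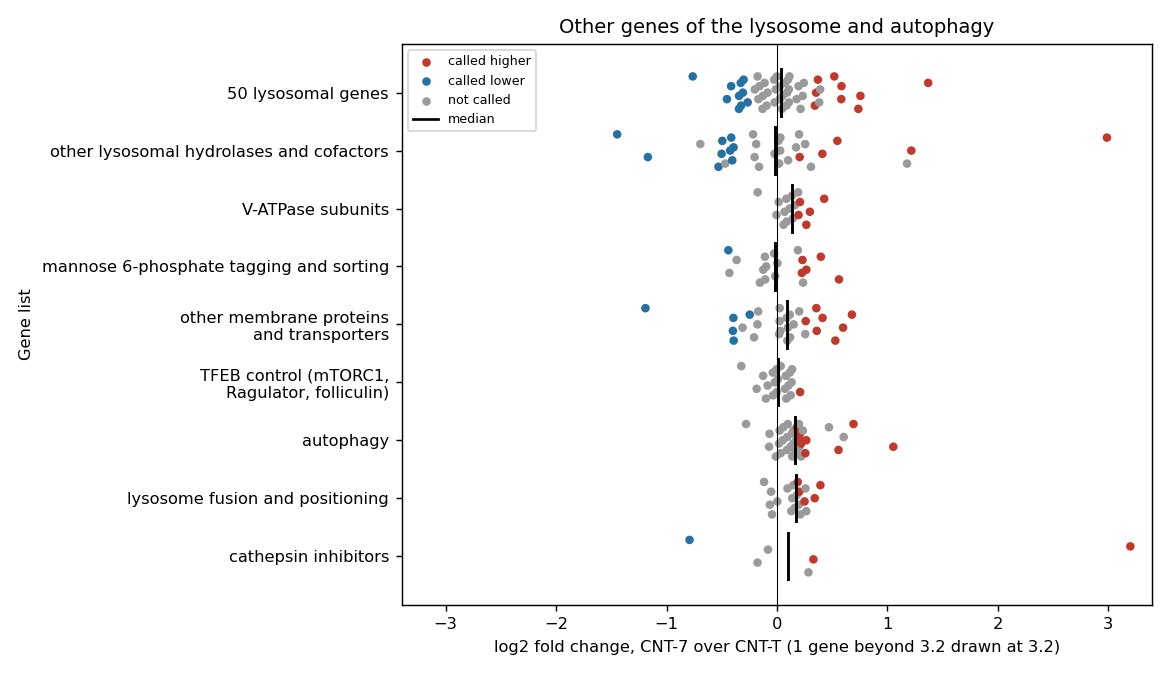
Log2 fold change, positive where CNT-7 is higher (horizontal axis), for each tested gene of the 50 lysosomal genes and of 8 further lists (rows), with the median as a black line and red or blue for genes called higher or lower. The V-ATPase, autophagy and fusion lists hold called genes only to the right of 0, and Cst7 at 5.90 is drawn at the edge. Over all genes tested, 13.9% were called higher and 14% lower.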

How the data were processed

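RNA-seq counts of peritoneal macrophages sorted from 4 rats given CNT-7 and 4 given CNT-T were analysed, with the group and number of each rat read from its title. The authors used the ARMOR workflow, with FastQC, Salmon against Ensembl rat cDNA sequences (Rnor 6.0, as in the submitters' processing notes) and tximeta, and deposited estimated counts per gene without normalization. These were whole numbers, so rounding changed none. The version of Salmon was not given in the sources used here. Libraries were stranded, and estimated counts divide reads between similar transcripts. No column was left out.

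Counts were tested with edgeR 4.0.16 in R 4.3.3 (TMM, filterByExpr at count 10 and total 15, glmQLFTest, Benjamini-Hochberg over all 12124 genes tested, adjusted p under 0.10). Standard errors (SE) were obtained from each log2 fold change and its F statistic. At these totals 3 counts correspond to at most 0.109 CPM, which covers counting error only. The alternatives were DESeq2 1.42.0, scaling by the upper quartile, dropping the filter or asking for 10 counts or more per rat, stricter calls (adjusted p under 0.05, or 2-fold and more), a covariate for low or high rat numbers, and omission of single rats. Motifs were searched on both strands of the RefSeq promoter table, matched by symbol (42 of 50 genes) with the first entry of each symbol.

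The lysosomal genes and the other lists were chosen with earlier results of these data known. Values in every rat are given for called genes, at most 4 per role by fold change, for the gene of each role with the most CPM and for Tfeb, Tfe3 and Mitf. In the other lists up to 3 called genes with the largest change are named. Aga, Gm2a, Lamp1 and Idua were given more detail after their values were seen.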

Additional observations from a re-analysis of the deposited data

Results flagged for a closer look

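Among the lysosomal genes given with the value in every rat, 52 groups of 4 rats were examined for a rat far from the others (the gap to the nearest rat over the range of the group, set against Dixon's critical value). A rat stood apart in 2 of them, where chance gives 2.6. Ctsc was at 635.6 CPM in CNT-T rat 1, where the remaining CNT-T rats had 531 to 548 CPM (ratio 0.843). Psap was at 7382 CPM in CNT-7 rat 5, where the remaining CNT-7 rats had 6108 to 6218 CPM (ratio 0.914).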

How the results depend on the processing

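Of the 19 lysosomal genes called, 12 were called in all 13 alternative fits (7 higher and 5 lower), and 0 of the 19 changed sign in any of them. The 7 others (Ctsh, Ctss, Hexa, Ppt2, Cd63, Cd68 and Grn) were not called in at least 1 fit. The number called lower, 10 in the fit reported, was 5 at an adjusted p under 0.05, and it was 5 to 10 with each rat left out in turn. With at least a 2-fold change, 1 lysosomal gene was called higher and 0 lower (0 lower also at an unadjusted p under 0.05 in edgeR and in DESeq2), and 1006 of all genes were called, 552 higher and 454 lower. DESeq2 called 12 lysosomal genes higher and 10 lower. The list kept a median between 0.0059 and 0.068 on the log2 scale, and no scaling moved the median of all genes by more than 0.1. Genes that were not called and lay near 0 changed sign when a rat was left out, with log2 fold changes over these fits of Tpp1 -0.0684 to 0.0397, Gm2a -0.0425 to 0.2379, Tfe3 -0.0391 to 0.0251, Mcoln1 -0.0497 to 0.0615, Arsa -0.0926 to 0.0041, Dnase2 -0.0078 to 0.1526, Gaa -0.2353 to 0.0333, Man2b1 -0.1553 to 0.0011, Ctns -0.0492 to 0.1235, Acp2 -0.0218 to 0.0976 and Pla2g15 -0.0175 to 0.1042, and Tfe3 was at 0.0023 with at least 10 counts in every rat. Of the 22 called genes named in the other lists, 17 were called in all of the alternative fits. No paired analysis was possible because the groups share no rat number. The smallest count of a lysosomal gene in a rat was 339, and counting error was not separated from the spread between rats.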
